A study of Canis lupus familiaris with 15 samples.

Results

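The genes followed here handle long-chain fatty acids inside the cell, and their levels were compared across 3 canine mammary tumour cell lines: the carriers FABP3 and FABP5, the activating enzyme ACSL5, the desaturase SCD and the lipase PNPLA2. They were taken by gene symbol, which gave 7 of the 22176 probes of the array, or 5 of 5246 named genes. FABP3 and SCD had 2 probes each and the other 3 genes 1 probe each. P114 came from a mammary anaplastic carcinoma, CMT-U229 from a mixed tumour that was benign, and CMT-U335 from a mammary osteosarcoma. The labels name no treatment, and all lines were harvested near confluence. Each line stands for 1 tumour, so a difference between lines is not a difference between tumour types. Every one of 15 two-dye cDNA arrays carried labelled RNA of a pair of lines, with 5 arrays each for P114 against CMT-U335, P114 against CMT-U229 and CMT-U229 against CMT-U335.

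Long-chain fatty acids are poorly soluble and travel through the cytosol bound to small fatty acid binding proteins. FABP3 is the form best known from heart, skeletal muscle and lactating mammary gland, and FABP5 the form best known from skin and other epithelia. Acyl-CoA synthetases such as ACSL5 join a fatty acid to coenzyme A, which commits it to storage, membrane synthesis or oxidation. SCD, stearoyl-CoA desaturase, places a double bond into saturated acyl-CoA, and PNPLA2, adipose triglyceride lipase, starts the breakdown of stored triglyceride.

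Every value below is read as a log2 ratio, first-named over second-named line, and means carry the standard error from limma (n = 5 arrays). The log base is not stated, so every fold rests on the assumption of base 2. Calls are those with an adjusted p under 0.05 (Benjamini-Hochberg, over all 5246 genes). Which dye was the numerator is not stated; Cy5 was taken, being channel 1 on every array, so every direction is likely and not settled. With Cy3 on top every sign below, and every order of lines, would turn round. Read so, 4 of 5 measured epithelial markers were higher and 1 lower in the carcinoma line P114 than in CMT-U335. EPCAM was at 3.55 ± 0.154, KRT18 at 3.48 ± 0.187, KRT8 at 2.46 ± 0.201, DSP at 0.57 ± 0.145 and TJP1 at -0.35 ± 0.0816. Of 10 osteoblast and stromal markers 3 were higher and 4 lower in that pair, and the list ran both ways. Higher were the osteopontin gene SPP1 (4.12 ± 0.179), the collagen gene COL3A1 (0.69 ± 0.114) and SPARC (0.56 ± 0.166). Lower were the collagen-degrading protease gene CTSK (-3.29 ± 0.247), the collagen gene COL1A2 (-1.39 ± 0.142), ZEB1 (-0.91 ± 0.13) and FBLN2 (-0.84 ± 0.137). These markers do not settle the direction. Swapped-dye arrays of a pair correlated from -0.35 to 0.00 as deposited and arrays of the same dye order from 0.20 to 0.50. Per the labels each array is a biological replicate, but the design text also speaks of dye swaps, so p-values measure the spread between arrays, which may be partly technical. Of the 5 genes, 3 were called in P114 against CMT-U335, where 22.3% of all genes were called, and 3 in P114 against CMT-U229, where 7.3% were. For CMT-U229 against CMT-U335 the count was 2, with 17.3% of all genes called. A ratio carries no absolute level, so the 5 genes cannot be ranked against each other by abundance, and in RNA of whole cultures fewer cells that use a gene and less of its RNA per cell cannot be told apart.

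**Figure D1:**
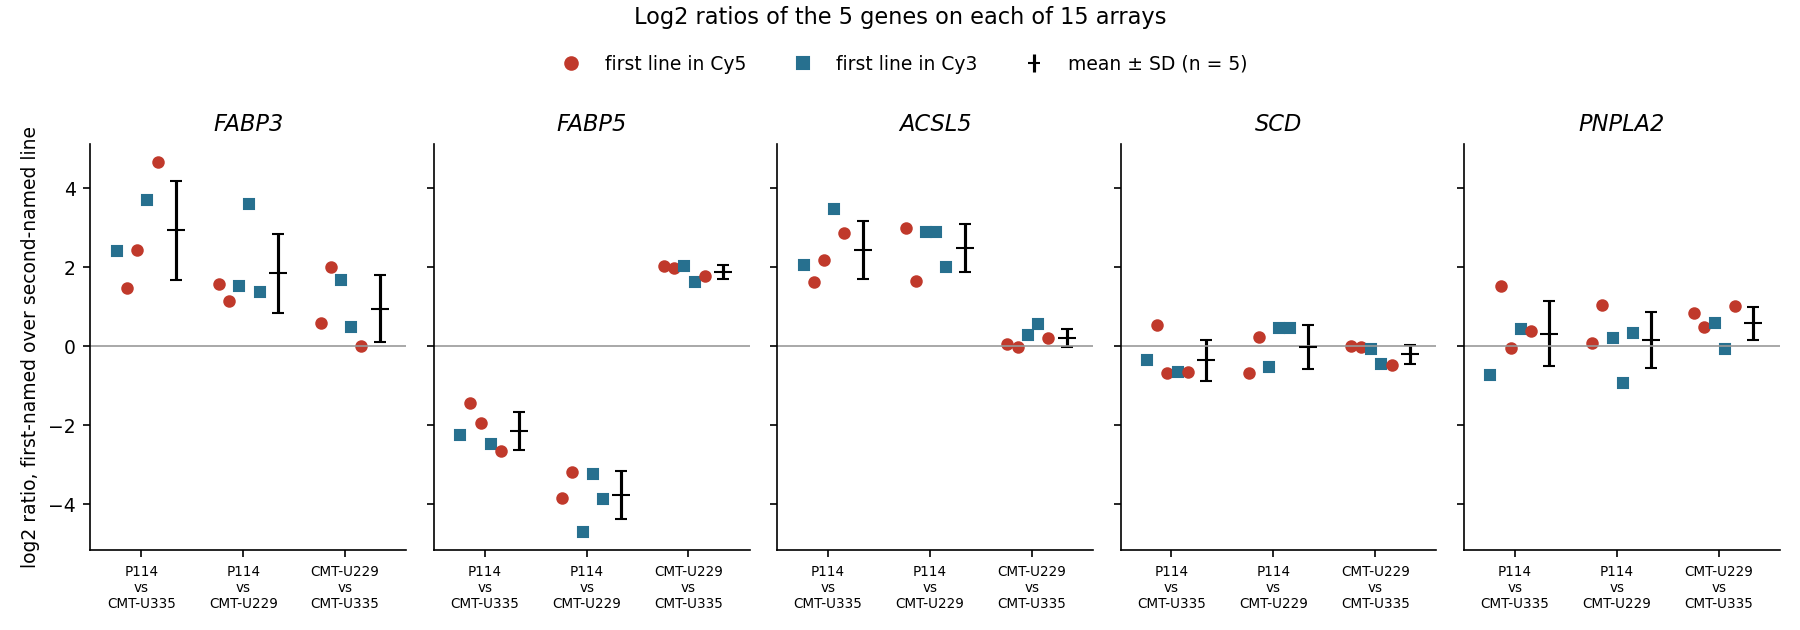
Log2 ratio (first-named over second-named line) of each gene on each array, probes of a gene averaged, with circles where the first-named line was in Cy5 and squares where it was in Cy3; bars are mean ± SD over 5 arrays. FABP3 and ACSL5 lie above 0 on all 10 arrays that carried P114, and FABP5 lies below 0 on all of them. SCD and PNPLA2 have values on both sides of 0 in every pair, though PNPLA2 was called in CMT-U229 against CMT-U335.

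FABP3 was highest in P114. Against CMT-U335 its log2 ratios in the order of the 5 replicates were 2.41, 1.48, 2.43, 3.71 and 4.66. All lay above 0, but they spanned more than 3 log2 units, and the mean was 2.94 ± 0.416, or 7.66-fold higher in P114 (adjusted p = 0.00254). This mean ranked 8 of 5246 genes by size. The SD over arrays, 1.25, exceeded that of 98.6% of genes.

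Against CMT-U229 FABP3 read 1.59, 1.15, 1.53, 3.61 and 1.37, a mean of 1.85 ± 0.341 or 3.60-fold higher in P114 (adjusted p = 0.0208). Replicate 4 stood far above the others, which lay in a narrow band. Without replicate 4 the mean was 1.41 with adjusted p = 0.000923. The call was lost without replicate 1 or 3 (adjusted p = 0.0641 in each case), without replicate 5 (adjusted p = 0.0612), with scale normalization between arrays (adjusted p = 0.0651) and with apparent dye swaps averaged (adjusted p = 0.171), while the mean stayed between 1.92 and 2.14. The ratio was above 0 on every array in both pairs with P114.

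In the pair without P114, FABP3 read 0.603, 2.00, 1.67, 0.493 and 0.0127 for CMT-U229 over CMT-U335. None was below 0, yet replicates 2 and 3 stood well above the remaining 3. The mean of 0.96 ± 0.291 was not called (adjusted p = 0.0675, 95% interval 0.27 to 1.64 without adjustment). It was called in 3 of 16 alternatives, among them the fit without replicate 5, at 1.19 with adjusted p = 0.0481.

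Both FABP3 probes ran the same way in the pairs with P114. Probe 14371 averaged 2.72 ± 0.35 and probe 16163 averaged 3.15 ± 0.57 against CMT-U335, and each was called when all 22176 probes were tested by themselves (adjusted p = 0.00457 and 0.0169). They parted on single arrays: on replicate 5 of P114 against CMT-U335 probe 14371 read 3.54 and probe 16163 read 5.79. Against CMT-U229 the means were 1.91 ± 0.398 for probe 14371, which missed the threshold (adjusted p = 0.0581), and 1.78 ± 0.307 for probe 16163 (adjusted p = 0.0313). On replicate 4 of CMT-U229 against CMT-U335 the probes had opposite signs, 1.21 for probe 14371 and -0.219 for probe 16163. The array-to-array spread of FABP3 was thus seen on both probes, and part of it was a difference between probes.

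**Figure D2:**
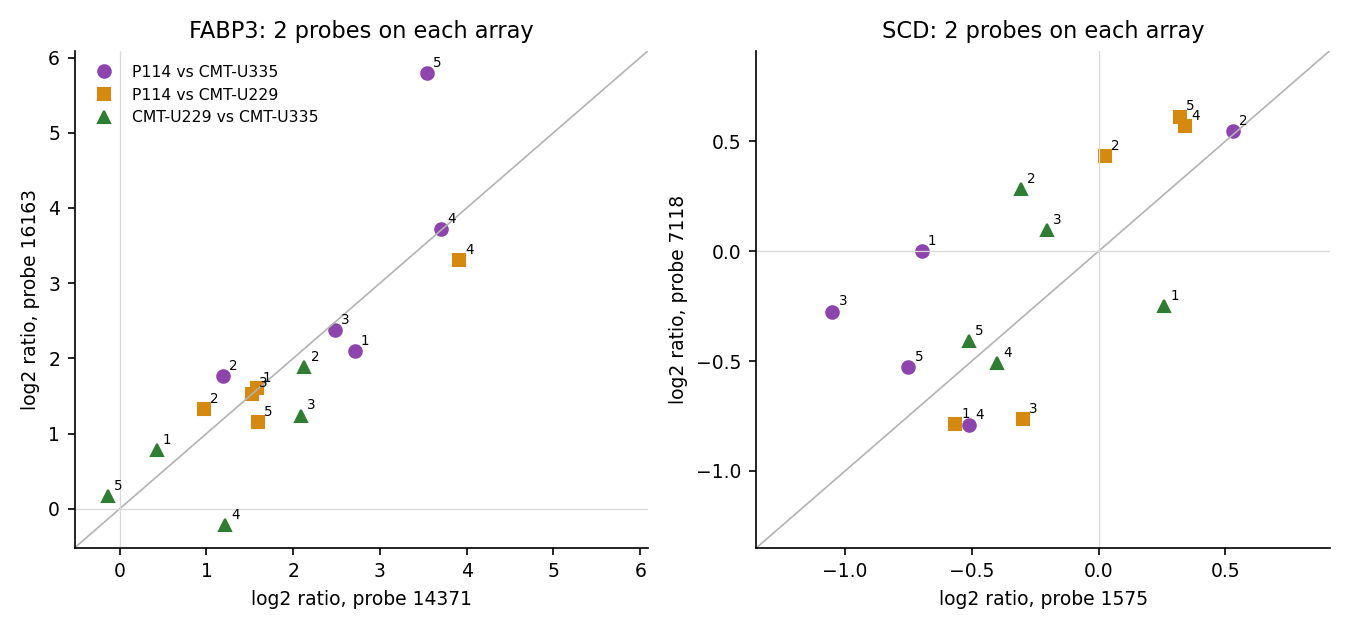
Log2 ratios of the 2 FABP3 probes (left) and the 2 SCD probes (right) plotted against each other, 1 point per array, numbered by replicate and marked by pair; the line is equality. FABP3 probes share a sign on all 10 arrays with P114 and differ most, by 2.25, on replicate 5 of P114 against CMT-U335, whereas SCD probes stay between -1.05 and 0.612.

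FABP5 ran opposite to FABP3 in P114. Against CMT-U335 the log2 ratios were -2.24, -1.44, -1.93, -2.48 and -2.64, all below 0. The mean of -2.15 ± 0.17 made FABP5 4.43-fold lower in P114 (adjusted p = 0.00023). Against CMT-U229 they were -3.85, -3.18, -4.7, -3.22 and -3.87, lower still on every array than any value of the first pair. The mean of -3.76 ± 0.218 was 13.6-fold lower in P114 (adjusted p = 0.000172) and ranked 3 of 5246 genes by size.

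In CMT-U229 over CMT-U335 FABP5 read 2.04, 1.99, 2.03, 1.64 and 1.78, the tightest set of any called value of the 5 genes. Its SD of 0.177 was below the median SD of all genes, 0.211. The mean of 1.90 ± 0.0845, or 3.72-fold higher in CMT-U229, had adjusted p = 5.98e-05. FABP5 kept its call in all 15 alternatives in each of the 3 pairs, with the highest adjusted p at 0.0181. With Cy5 on top the lines were ordered CMT-U229, CMT-U335, P114 from high to low, with Cy3 on top from low to high, and each neighbouring difference was called.

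The other fatty acid binding protein genes on the array stayed near 0 in every pair; they were singled out as relatives, and not by the rule for named genes. FABP1, the liver form, had means of -0.01, 0.04 and -0.01 in P114 against CMT-U335, P114 against CMT-U229 and CMT-U229 against CMT-U335. FABP6, which carries bile acids in the ileum, had 0.16, -0.02 and -0.05, and FABP7, the brain form, 0.10, -0.08 and 0.07. None of these 9 values was called, and with no intensities a gene near background cannot be told from one that is equal in the lines.

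ACSL5 was higher in P114 than in either other line. Against CMT-U335 its log2 ratios were 2.06, 1.63, 2.2, 3.49 and 2.86. Replicates 4 and 5 lay farthest from 0 and replicate 2 nearest, as they did for FABP3 and, below 0, for FABP5. The mean of 2.45 ± 0.248 was 5.46-fold higher in P114 (adjusted p = 0.000612). Against CMT-U229 the ratios were 3.01, 1.65, 2.9, 2.89 and 2.01, with replicates 2 and 5 below the rest. The mean of 2.49 ± 0.217, or 5.63-fold higher in P114, had adjusted p = 0.000862 and ranked 6 of 5246 genes by size. Both calls held in all 15 alternatives, with the highest adjusted p at 0.0435.

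Between the lines without P114, ACSL5 read 0.0637, -0.0268, 0.295, 0.565 and 0.204 for CMT-U229 over CMT-U335. Replicate 2 alone was below 0, and the mean of 0.22 ± 0.0979 was not called (adjusted p = 0.195, 95% interval -0.01 to 0.45 without adjustment). The upper end of this interval, 0.45, lay below every ACSL5 value in the pairs with P114.

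The other long-chain acyl-CoA synthetases measured are named here as relatives of ACSL5, outside the rule for named genes. ACSL1, the major form of fat and liver, had means of -0.23, 0.14 and -0.23 in the same order of pairs, and ACSL4, which prefers arachidonic acid, -0.15, -0.00 and 0.00. ACSL6, a form of brain, had 0.02, -0.01 and -0.05. ACSL3, which sits on lipid droplets, had 0.01 and 0.34 in the pairs with P114 and fell in CMT-U229 relative to CMT-U335, at -0.32 ± 0.0682 (adjusted p = 0.0185). Of the 5 synthetases, ACSL5 had the largest means in both pairs with P114 and ACSL3 the largest in CMT-U229 against CMT-U335.

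SCD was not called in any pair, yet its ratios moved from array to array. In P114 against CMT-U335 they were -0.349, 0.538, -0.665, -0.653 and -0.639. Replicate 2 was the 1 array above 0, and the mean of -0.35 ± 0.182 was not called (adjusted p = 0.227, 95% interval -0.78 to 0.07 without adjustment). Without replicate 2 it was -0.58 and was called (adjusted p = 0.00816). Whether SCD was called between P114 and CMT-U335 thus rested on 1 array.

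In P114 against CMT-U229 SCD read -0.677, 0.228, -0.533, 0.454 and 0.467. Replicates 1 and 3 lay below 0 and replicates 2, 4 and 5 above it, so that the mean was -0.01 ± 0.196 (adjusted p = 0.99, 95% interval -0.47 to 0.45). In CMT-U229 against CMT-U335 the ratios were 0.00383, -0.0117, -0.0541, -0.456 and -0.462. Replicates 1, 2 and 3 were near 0 and replicates 4 and 5 below it, with a mean of -0.20 ± 0.101 (adjusted p = 0.266, 95% interval -0.43 to 0.04). Probes 1575 and 7118 shared a sign on all 5 arrays of P114 against CMT-U229, with means of -0.04 ± 0.151 and 0.01 ± 0.257, but on 2 of 5 arrays of CMT-U229 against CMT-U335. The plot of paired probes shows this scatter along the line of equality in P114 against CMT-U229.

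PNPLA2, with 1 probe, was called in 1 of the 3 pairs. In P114 against CMT-U335 it read -0.728, 1.53, -0.0476, 0.45 and 0.382, and in P114 against CMT-U229 0.0931, 1.05, 0.206, -0.921 and 0.332. Replicate 2 was the highest in both pairs, and signs were mixed. Neither mean was called, at 0.32 ± 0.279 (adjusted p = 0.495, 95% interval -0.34 to 0.97) and 0.15 ± 0.246 (adjusted p = 0.861, 95% interval -0.43 to 0.73).

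In CMT-U229 over CMT-U335 PNPLA2 read 0.855, 0.496, 0.601, -0.0671 and 1.02, with replicate 4 alone below 0. The mean of 0.58 ± 0.153, or 1.5-fold higher in CMT-U229, passed narrowly (adjusted p = 0.0417). It was called in 7 of 15 alternatives. Leaving out replicate 1, 2, 3 or 5 ended the call (adjusted p = 0.105, 0.106, 0.111 and 0.129 in turn), and without replicate 4 the mean was 0.74 with adjusted p = 0.00824. Dye order moved with this gene in all 3 pairs: arrays with the first-named line in Cy5 averaged 0.622, 0.573 and 0.791, against -0.139, -0.127 and 0.267 where it was in Cy3. With a dye term the mean in CMT-U229 against CMT-U335 was 0.53 and still called (adjusted p = 0.0455).

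Taking all 15 arrays together as a closed loop gave each line a level relative to the mean of the 3 lines. P114 lay at 1.60 ± 0.191 for FABP3 and at 1.65 ± 0.107 for ACSL5 (SE, n = 15 arrays). CMT-U229 lay at -0.30 for FABP3 and -0.76 for ACSL5, and CMT-U335 at -1.30 and -0.89. P114 was the highest line for both genes (the lowest, were Cy3 on top), and CMT-U229 lay 1.00 above CMT-U335 for FABP3 in this fit (adjusted p = 0.0326). For FABP5 the levels were -1.97 ± 0.0886 in P114, 1.89 in CMT-U229 and 0.08 in CMT-U335. SCD stayed between -0.12 and 0.18 in the 3 lines and PNPLA2 between -0.30 and 0.16. In this fit PNPLA2 in CMT-U229 over CMT-U335 was at 0.44 and lost its call (adjusted p = 0.161).

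**Figure D3:**
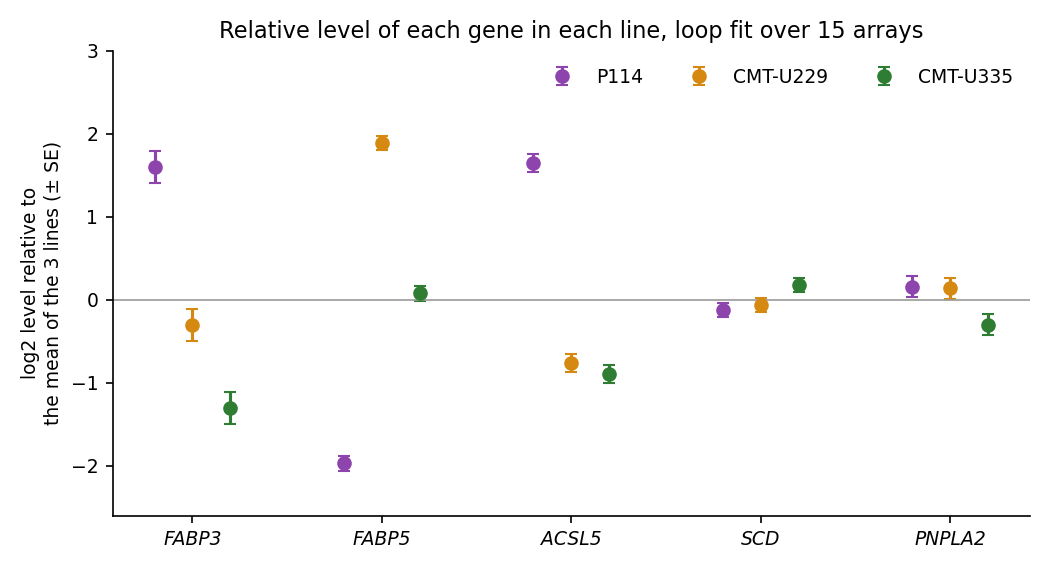
Log2 level of each gene in each line relative to the mean of the 3 lines, from a loop fit over 15 arrays; points are estimates and bars ± SE. P114 is the highest line for FABP3 and ACSL5 (1.60 and 1.65) and the lowest for FABP5 (-1.97), and the lines lie within 0.46 of each other for SCD and PNPLA2.

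Because the pairs close a loop, each direct ratio of P114 over CMT-U335 could be set beside the sum of the ratios through CMT-U229. FABP3 gave 2.94 directly and 2.81 through CMT-U229, and FABP5 -2.15 and -1.87. ACSL5 gave 2.45 and 2.71, SCD -0.35 and -0.21, and PNPLA2 0.32 and 0.73. The direct and indirect values had the same sign for all 5 genes, and their differences ran from -0.42 to 0.13 with SEs from 0.325 to 0.725. By limma 0 of 5246 genes were called for loop closure and 17 had an unadjusted p under 0.05, far below a share of 0.05 of the genes. The SE of this difference was thus too wide for the missing calls to show that the routes gave equal values.

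Couples of arrays lying close together were sought with genes other than these 5. Only genes that varied widely over the arrays of the pair and showed little dye effect in the other pairs were used. Only couples of opposite dye order were compared. The closest were replicates 1 with 3 and 2 with 5 in P114 against CMT-U229. In CMT-U229 against CMT-U335 they were 2 with 3 and 4 with 5. For the genes so selected, a median of 0.0598 of the variation over arrays lay within couples in the first of these pairs (78 genes). In the second it was 0.177 (52 genes). In P114 against CMT-U335 no coupling stood out: the best left 0.426 within couples and the next best 0.504. The couples were found after seeing the data, and the labels do not say whether they share RNA. Arrays of the same dye order were not tried as couples, so opposite order within couples was set beforehand and is not a finding. SCD values were close within couples: in P114 against CMT-U229 its couples differed internally by 0.144 and 0.239, while their means were -0.605 and 0.347. In CMT-U229 against CMT-U335 the internal differences were 0.0423 and 0.00612, and the couple means -0.0329 and -0.459. FABP5 differed by 0.85 and 0.692 within its couples in P114 against CMT-U229, around means of -4.27 and -3.53. FABP3 had couple means of 1.84 and 0.253 in CMT-U229 against CMT-U335 and internal differences of 0.337 and 0.481. For PNPLA2 in that pair, replicates 4 and 5 differed by 1.09 around a mean of 0.478.

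Genes whose 15 ratios lay nearest to those of each of the 5 genes were found by the root mean square difference over all arrays. For ACSL5 they were NDUFV2, a subunit of respiratory complex I, at 0.464, MOCS2, an enzyme of molybdenum cofactor synthesis, at 0.503, and the squalene synthase gene FDFT1 at 0.557, where the median gene lay at 2.12. NDUFV2 had means of 2.37 ± 0.136, 2.40 ± 0.12 and -0.10 ± 0.134 in the 3 pairs, close to the 2.45, 2.49 and 0.22 of ACSL5. FABP3 lay nearest to the epithelial adhesion gene EPCAM (0.962), then to ACSL5 (0.998) and FDFT1 (1.05). For FABP5 the nearest were HMGN3, a nucleosome-binding protein gene, at 1.42, MTURN at 1.43 and ARMCX3 at 1.57, with a median gene at 2.77. All 3 were called in the same direction as FABP5 in every pair. The distance is not scaled, so a gene with ratios as large as those of FABP5 lies far from genes with smaller ratios of like pattern.

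For SCD the nearest genes were MFSD11 (0.241), TCEAL1 (0.249) and MAGED2 (0.255), with a median gene at 0.544. For PNPLA2 they were CLGN (0.359), a chaperone of the endoplasmic reticulum, the phosphatase scaffold PPP2R1A (0.363) and LOC476602 (0.365), with a median gene at 0.782. CLGN had its largest mean in the same pair as PNPLA2, at 0.63 ± 0.108 in CMT-U229 over CMT-U335 (adjusted p = 0.00786). A small distance for a gene whose ratios stay near 0 carries less than one for a gene such as ACSL5, which moved by over 2 log2 units.

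Other genes of fatty acid handling were taken from 6 lists, of which 84 besides the 5 genes were measured. In P114 against CMT-U335, 6 of them were called higher (7.14%) and 21 lower (25%), where 7.89% and 14.4% of all genes were. In P114 against CMT-U229, 3 were higher and 4 lower, where 3.32% and 3.98% of all genes were. Between CMT-U229 and CMT-U335, 5 were higher in CMT-U229 and 12 lower, where 8.77% and 8.58% were. In both pairs with P114 the 3 means of these lists farthest from 0 were those of FABP3, FABP5 and ACSL5. Because the 5 genes and the lists were chosen with earlier results known, this order is not independent of that choice.

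**Figure D4:**
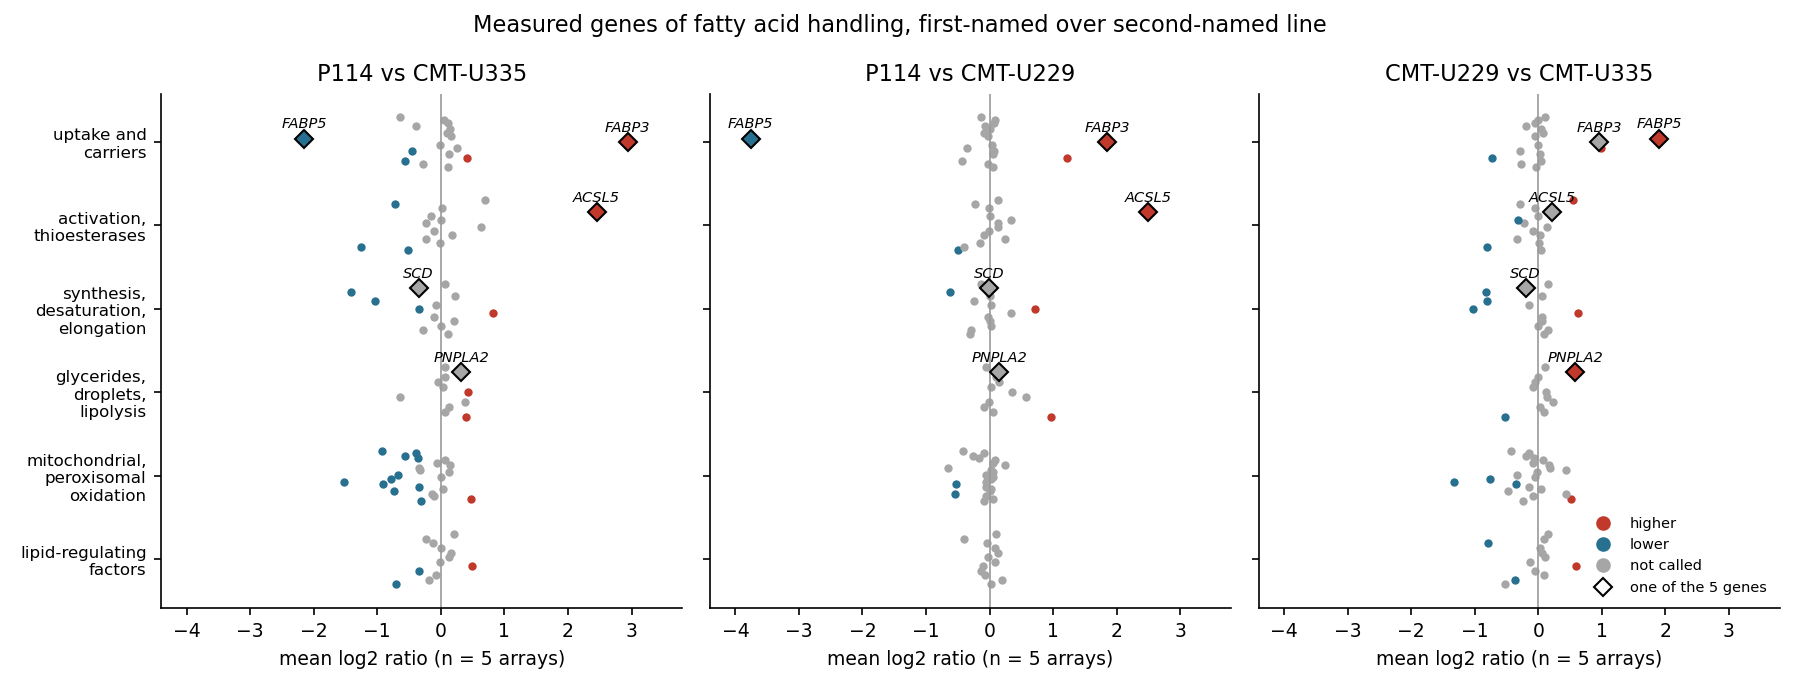
Mean log2 ratio over 5 arrays of every measured gene of the 6 lists in the 3 pairs, coloured by call (limma, adjusted p under 0.05), with diamonds for the 5 genes. FABP3, FABP5 and ACSL5, chosen with earlier results of these data known, lie beyond the other genes in both pairs with P114. The oxidation list leans to lower values in P114 against CMT-U335.

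Among 15 other genes of uptake and transport, 1 was higher and 2 lower in P114 than in CMT-U335 (median 0.0954, all genes -0.0228). These shares, 6.67% and 13.3%, were near the 7.89% and 14.4% of all genes. CAV1, a membrane protein of caveolae, rose in P114 against both lines, at 0.41 ± 0.0927 and 1.22 ± 0.0729 (adjusted p = 0.0177 and 0.000179). DBI, the acyl-CoA binding protein, was singled out after its values were seen: it rose in CMT-U229 over CMT-U335, at 0.98 ± 0.103 (adjusted p = 0.00117), the pair in which FABP5 rose. In P114 it had 0.26 and -0.35 against CMT-U335 and CMT-U229, neither called.

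Of 13 other genes of activation and thioester cleavage none was higher in P114 in either pair, while 3 were lower against CMT-U335 (23.1%, all genes 14.4%) and 1 against CMT-U229 (7.69%, all genes 3.98%). With 7.89% and 3.32% of all genes called higher, a count of 0 among 13 is near the background. ACOT7, an acyl-CoA thioesterase that runs the reaction opposite to ACSL5, fell in P114 against CMT-U335 at -1.25 ± 0.123 (adjusted p = 0.000561). ACOT7 also fell in CMT-U229 against CMT-U335, where it stood at -0.81 ± 0.198 (adjusted p = 0.0316).

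In synthesis, desaturation and elongation 1 of 12 other genes was higher (8.33%) and 3 lower (25%) in P114 than in CMT-U335. Of all genes 7.89% were higher and 14.4% lower. ME1, malic enzyme, which supplies NADPH for fatty acid synthesis, fell in P114 against both lines, at -1.41 ± 0.135 and -0.63 ± 0.089 (adjusted p = 0.000501 and 0.00703). HSD17B12, a reductase of fatty acid elongation, was at -1.03 ± 0.0956 against CMT-U335 (adjusted p = 0.000447). It was not called in P114 against CMT-U229 (-0.24, adjusted p = 0.553). In CMT-U229 against CMT-U335 it was also lower, at -0.81 ± 0.132 (adjusted p = 0.00657). FADS3, a member of the fatty acid desaturase family, was at -0.35 ± 0.0869 and 0.71 ± 0.0895 in the pairs with P114, so it was highest in CMT-U335. FADS3 fell by 1.03 on the log2 scale in CMT-U229 against CMT-U335 (adjusted p = 0.000514), whereas SCD was not called.

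Of 10 other genes of glyceride synthesis, lipid droplets and lipolysis 2 were higher (20%) and none lower in P114 against CMT-U335. Of all genes 7.89% were higher and 14.4% lower, so counts this small carry little. AGPAT4, an acyltransferase that makes phosphatidic acid, rose in P114 against both lines, at 0.40 ± 0.0887 and 0.96 ± 0.0862 (adjusted p = 0.0163 and 0.000958). PNPLA2 was the 1 called gene of this list in CMT-U229 against CMT-U335 that rose, and AGPAT4, at -0.52 ± 0.0908, the 1 that fell.

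In the longest of the lists, 22 genes of mitochondrial and peroxisomal oxidation, 11 (50%) were lower and 1 higher in P114 than in CMT-U335, where 14.4% and 7.89% of all genes were, and the list median was -0.334. AMACR, the racemase that opens branched fatty acids to oxidation, fell by 1.52 on the log2 scale (SE 0.188, adjusted p = 0.0014), and fell by 1.32 in CMT-U229 against CMT-U335 (SE 0.194, adjusted p = 0.00429). Against CMT-U229 2 of the 22 (9.09%) were lower in P114 and none higher, where 3.98% and 3.32% of all genes were. In CMT-U229 against CMT-U335 3 were lower (13.6%) and 1 higher (4.55%), where 8.58% and 8.77% of all genes were.

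Of 12 lipid-sensing and lipid-regulating factors 1 was higher (8.33%) and 2 lower (16.7%) in P114 than in CMT-U335. These shares were near the 7.89% and 14.4% of all genes. None was called in P114 against CMT-U229, where 7.3% of all genes were. INSIG1, which holds back the sterol-sensing activator of lipid synthesis genes, was at -0.71 ± 0.142 against CMT-U335 (adjusted p = 0.0107). PRKAA1, a catalytic subunit of AMP-activated kinase, fell in CMT-U229 against CMT-U335 at -0.79 ± 0.119 (adjusted p = 0.00456).

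Markers of cells that are rich in these genes were also read. Of 10 adipocyte markers only CIDEA was measured, and it was not called in any pair. Of 7 striated muscle markers none was higher in P114, and MYL2 was lower than in CMT-U335 (-0.50 ± 0.112, adjusted p = 0.0167). With 7.89% and 3.32% of all genes called higher in the pairs with P114, a count of 0 among 7 is near the background. Of 6 macrophage and leukocyte markers CD14 alone was called, higher in P114 at 0.36 ± 0.103 and 0.50 ± 0.0676 against CMT-U335 and CMT-U229 (adjusted p = 0.0451 and 0.00626). A count of 1 among 6 is likewise too small to set apart from those shares. The part of other cell types in the ratios of the 5 genes was not tested.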

How the data were processed

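Per the labels' protocols, cRNA was transcribed from total RNA with T7 polymerase and aminoallyl UTP, then dyed with Cy3 or Cy5. The authors deposited 1 log2 ratio of the dyes per probe and array, already normalized, as the series design text states. The sources used here give no normalization method, numerator or log base; base 2 and Cy5 on top were assumed. Array medians lay from -0.00671 to 0.0134.

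Of 22176 probes 7694 had 1 gene symbol, 0 several and 14482 none here, in GEO's platform annotation. For 7340 probes the symbol was taken from RefSeq (UU_Cfam_GSD_1.0) by Entrez identifier. The table had 2 missing values. Ratios were signed to follow the line order of the array title, and a gene's probes were then averaged. Genes with values on fewer than 3 arrays of a pair were dropped.

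Pairs were fitted separately with limma 3.58.1 (lmFit, eBayes, two-sided) in R 4.3.3, with Benjamini-Hochberg adjustment over 5246 genes. The study's design names SAM, which was run as a SAM-type alternative with 16 sign flips. Loop closure and line levels came from fits over all 15 arrays. The tests were tested on simulated data. Alternatives were array centring and scaling, a filter on missing values, a dye term, joint and loop fits, a replicate block, single probes, thresholds and each array left out. Named were the 5 genes, list genes called with an absolute mean of at least 1 (otherwise the 2 largest called), and the 3 nearest genes to each. No intensities were read, so how far a probe lay above background is unknown, and precision is limited by the number of arrays. The 5 genes and the lists were chosen with earlier results of these data known.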

Additional observations from a re-analysis of the deposited data

Results flagged for a closer look

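FABP3 read 3.61 in replicate 4 of P114 against CMT-U229, where the other 4 arrays lay between 1.15 and 1.59; the gap was 0.823 of the whole range, above the critical value of 0.71 for 5 arrays. Both probes were high there, at 3.91 and 3.31. SCD read 0.538 in replicate 2 of P114 against CMT-U335, where the other arrays lay between -0.665 and -0.349, a gap of 0.737 of the range, and both probes were above 0, at 0.53 and 0.546. Of 15 sets of 5 arrays examined 2 stood out in this way, and chance alone marks about 1 in 20.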

How the results depend on the processing

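The calls of FABP5 in all 3 pairs, and of FABP3 and ACSL5 in P114 against CMT-U335 and ACSL5 in P114 against CMT-U229, were kept in every alternative run. No called ratio changed sign. FABP3 in P114 against CMT-U229 was called in 10 of 16 alternatives and PNPLA2 in CMT-U229 against CMT-U335 in 7 of 15; the cause was not tested. The 3 calls in P114 against CMT-U335 ranged from 3 to 4 when an array was left out, those in P114 against CMT-U229 from 2 to 3, and the 2 in CMT-U229 against CMT-U335 from 1 to 2. In that last pair 1 gene was called in a joint fit of 15 arrays, with the replicate block, at a threshold of 0.01 and with each probe tested by itself.

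Counts over all genes in P114 against CMT-U335 were 1169, against 1757 in the loop fit, 642 at a threshold of 0.01 and 835 to 1031 with an array left out. In P114 against CMT-U229 they were 383, against 650 in the joint fit, 1056 in the loop fit, 159 and 578 at thresholds of 0.01 and 0.1, 79 with apparent dye swaps averaged (chosen after seeing the data) and 202 to 408 with an array left out. In CMT-U229 against CMT-U335 they were 910, against 1445 in the loop fit, 470 at 0.01, 410 with swaps averaged and 571 to 863 with an array left out. Averaging swaps leaves 3 values per pair, and in P114 against CMT-U335, where no coupling stood out, gave 840.

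With the replicate block the counts were 1172, 515 and 920, and PNPLA2 in CMT-U229 against CMT-U335 lost its call (adjusted p = 0.117). No pairing of arrays by number was seen. Same-numbered arrays of different pairs correlated from -0.24 to 0.23, and 1 of 15 arrays correlated best with its own number. The best match was taken as the highest positive correlation. RNA of CMT-U229 shared by P114 against CMT-U229 and CMT-U229 against CMT-U335 would give a negative one. The check thus cannot show that same-numbered arrays share no RNA.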

Other observations

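The nearest measured neighbours of the 5 genes, up to 3 protein-coding genes to each side in the order of UU_Cfam_GSD_1.0, were called in some pairs, in part where the gene itself was not called. Of all genes 22.3% were called in P114 against CMT-U335, 7.3% in P114 against CMT-U229 and 17.3% in CMT-U229 against CMT-U335. Some calls among neighbours thus arise without any link to the gene, and such a link was not tested. Next to FABP3, SERINC2 was at 0.29 ± 0.0834 in P114 against CMT-U335 (limma, adjusted p = 0.0414) and -0.03 ± 0.0924 against CMT-U229, and ZCCHC17 at -0.20 and -0.15, not called. SNRNP40, also near FABP3, was at 0.30 ± 0.0738 in CMT-U229 against CMT-U335 (adjusted p = 0.0336). Next to FABP5, PAG1 was at 0.05, -0.05 and -0.03 in P114 against CMT-U335, P114 against CMT-U229 and CMT-U229 against CMT-U335, none called. ZDHHC6, a palmitoyltransferase gene beside ACSL5, fell in P114 against CMT-U335 (-0.51 ± 0.0776, adjusted p = 0.00339), where ACSL5 rose, and stood at 0.19 ± 0.0696 against CMT-U229, not called. ZDHHC6 was also lower in CMT-U229 than in CMT-U335 (-0.80 ± 0.0836, adjusted p = 0.00117), where ACSL5 was not called. The neighbours of SCD, WNT8B and NDUFB8, were not called in any pair, with values from -0.24 to 0.09. CD151, a tetraspanin gene near PNPLA2, rose in CMT-U229 over CMT-U335, at 0.43 ± 0.0751 (adjusted p = 0.00896), as PNPLA2 did, and in P114 over CMT-U335, at 0.37 ± 0.0804 (adjusted p = 0.015), where PNPLA2 was not called. RPLP2, beside PNPLA2, was at 0.27, 0.22 and 0.06, none called.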
